A study of Mus musculus with 6 samples.

Results

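The Hippo pathway genes examined here are the coactivator genes Yap1 and Wwtr1, the transcription factor genes Tead1, Tead2, Tead3 and Tead4, the kinase genes Lats1 and Lats2, the angiomotin-like gene Amotl2 and the target gene Ankrd1. They were chosen by gene symbol, and all 10 were found among the 18002 genes listed. RNA came from primary cells grown from mouse jawbone periosteum, the sheath around bone that harbours skeletal progenitors. After 48 h in culture the cells were spheroids, the self-assembled cell aggregates of the 3D format (3 libraries), or a monolayer, the 2D format (3 libraries). The labels give no strain, age, genotype or added agent for either format, and do not explain the letter P in every library title. Nor do they state whether libraries of the same format stem from separate animals or cultures, so every p-value here measures the spread among these libraries alone, which may be technical.

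The Hippo pathway is a kinase cascade that holds the related coactivators YAP and TAZ (the product of Wwtr1) out of the nucleus. The kinases MST1 and MST2 activate LATS1 and LATS2, which phosphorylate YAP and TAZ so that they are retained in the cytoplasm or degraded. When the cascade is quiet, as in spread cells with tensed actin, YAP and TAZ enter the nucleus and bind the TEAD factors, which carry the DNA-binding domain. Lats2, Amotl2 and Ankrd1 are themselves well-known targets of YAP and TAZ, the first pair also acting as feedback inhibitors. RNA abundance shows neither phosphorylation nor the location of the proteins.

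Library totals lay between 21701010 and 21889071 counts, and the median biological coefficient of variation was 3.23% per gene. Genes were tested with edgeR's quasi-likelihood test on the counts, and a gene was called where its p-value, adjusted by Benjamini-Hochberg over 13708 genes, was below 0.05. With so small a spread, 37.1% of all tested genes passed as higher in spheroids and 37.1% as lower, so sizes of change are given beside each call. The median absolute log2 fold change over all tested genes was 0.35. Prrx1, a mesenchymal transcription factor gene of the periosteum, was abundant in both formats, at 777 ± 25.9 CPM (counts per 1000000, library sizes TMM-adjusted) in spheroids and 695 ± 22.1 CPM in monolayers (SD, n = 3). The 6 epithelial markers examined summed to 0.137 to 0.363 CPM in spheroids and 0.185 to 0.418 CPM in monolayers, with Krt8 and Krt14 at 0 reads in every library. Markers of skeletal muscle, endothelium and other cell types were higher in spheroids, with values given beside the results they touch. In bulk RNA, fewer cells of a type and less RNA per cell cannot be told apart.

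All 10 Hippo genes were tested, and 4 were higher and 6 lower in spheroids. In either direction, 74.2% of all tested genes passed, so the count itself does not set these genes apart. Wwtr1, Tead2, Tead4 and Ankrd1 rose. Yap1, Tead1, Tead3, Lats1, Lats2 and Amotl2 fell. In CPM, no spheroid library crossed into the monolayer range for any of the 10, which held for 75.8% of all tested genes. Their median log2 fold change was -0.14, near that of all tested genes at 0.00, but their median absolute log2 fold change was 0.89. Tead4 and Ankrd1 rose by 2-fold or more, as did 12.7% of all tested genes, and Amotl2 fell by 2-fold or more, as did 6.67%. Wwtr1 rose 1.99-fold.

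**Figure D1:**
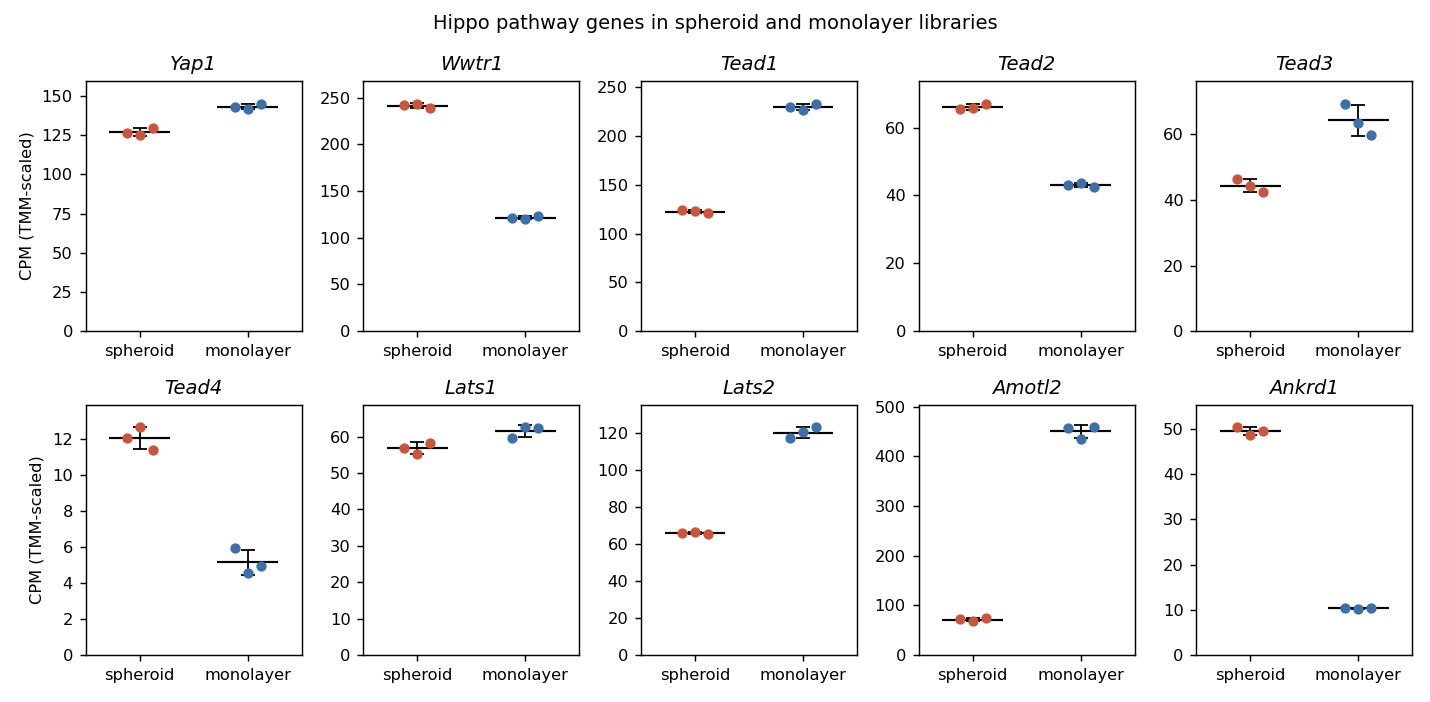
Level of each of the 10 Hippo genes in TMM-scaled CPM by culture format; each panel has its own axis from 0. Points are libraries, horizontal lines are means and bars are the SD of 3 libraries. Amotl2 stood between 68.1 and 73.8 CPM in spheroids, below all monolayers, and Ankrd1 between 48.7 and 50.3 CPM, above all monolayers.

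The mRNAs of the coactivators YAP and TAZ moved in opposite directions. Wwtr1 (gene ID 97064, chromosome 3, 57455644 to 57575910, GRCm38.p6) had 242, 243 and 239 CPM in spheroids, against 121, 121 and 123 CPM in monolayers. Every spheroid library lay far above every monolayer library, and the log2 fold change was 0.99 ± 0.03 (SE, adjusted p = 4.7e-24). Yap1 (gene ID 22601, chromosome 9, 7931999 to 8004638) had 126, 125 and 129.6 CPM in spheroids, against 143, 142 and 145 CPM in monolayers. The groups were separate but close, and the log2 fold change was -0.17 ± 0.03 (adjusted p = 9.62e-06), smaller in size than that of 71.4% of all tested genes.

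Levels of different genes can be compared only per length, for which the deposited FPKM values (fragments per kilobase of gene length, scaled to library size) were used. In FPKM, the ratio of Yap1 to Wwtr1 was 0.601, 0.590 and 0.621 in spheroids, against 1.38, 1.34 and 1.41 in monolayers. TAZ mRNA was thus the more abundant of the pair in all spheroids and YAP mRNA in all monolayers. The sum of Yap1 and Wwtr1 was 83.4 ± 0.551 FPKM in spheroids and 60.7 ± 1.55 FPKM in monolayers. These ratios and sums are described without a test, since 3 against 3 libraries cannot give an exact permutation p below 0.1.

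The TEAD factors differ little in the DNA they bind, and their genes split into a pair that rose and a pair that fell. Tead2 (gene ID 21677, chromosome 7, 45215792 to 45233468), the paralog known for early embryonic expression, had 65.4, 65.7 and 67.0 CPM in spheroids, against 43.2, 43.7 and 42.4 CPM in monolayers. Its log2 fold change was 0.62 ± 0.04 (adjusted p = 4.94e-15). Tead4 (gene ID 21679, chromosome 6, 128227143 to 128300813), which acts in the trophectoderm and in muscle cell differentiation, had 12.1, 12.7 and 11.4 CPM in spheroids, against 5.95, 4.58 and 4.93 CPM in monolayers. It was the least abundant of the 10 in both formats, in CPM and per length, and its log2 fold change of 1.23 ± 0.10 (adjusted p = 9.17e-13) had the largest error among them.

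Tead1 (gene ID 21676, chromosome 7, 112679356 to 112906784), which is needed for heart development, had 124, 123 and 121 CPM in spheroids, against 229.8, 227 and 233 CPM in monolayers. All spheroids lay far below all monolayers, and the log2 fold change was -0.91 ± 0.03 (adjusted p = 6.38e-23). Tead3 (gene ID 21678, chromosome 17, 28331671 to 28350805), known from placenta, had 46.3, 44.2 and 42.5 CPM in spheroids, against 69.3, 63.5 and 59.9 CPM in monolayers. All spheroids lay below all monolayers, and the log2 fold change was -0.53 ± 0.05 (adjusted p = 9.58e-11).

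Per length, the 4 changes nearly cancelled. The summed Tead level was 66.4 ± 0.863 FPKM in spheroids and 70.1 ± 1.82 FPKM in monolayers, and the groups were close but separate. Its make-up differed more. Tead2 made 48.5 ± 1.09% of the sum in spheroids and 29.4 ± 0.768% in monolayers. Tead1 made 19.0 ± 0.0791% in spheroids and 33.0 ± 1.18% in monolayers, and Tead3 made 26.3 ± 0.920% in spheroids and 35.2 ± 1.58% in monolayers. Tead4 held the smallest share in both formats, at 6.20 ± 0.274% in spheroids and 2.41 ± 0.257% in monolayers. No share overlapped between the formats. Set against this near-level Tead sum, Yap1 and Wwtr1 together amounted to 1.26 ± 0.0112 times the Tead sum in spheroids and 0.867 ± 0.0383 times in monolayers, a ratio chosen after the values were seen.

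**Figure D2:**
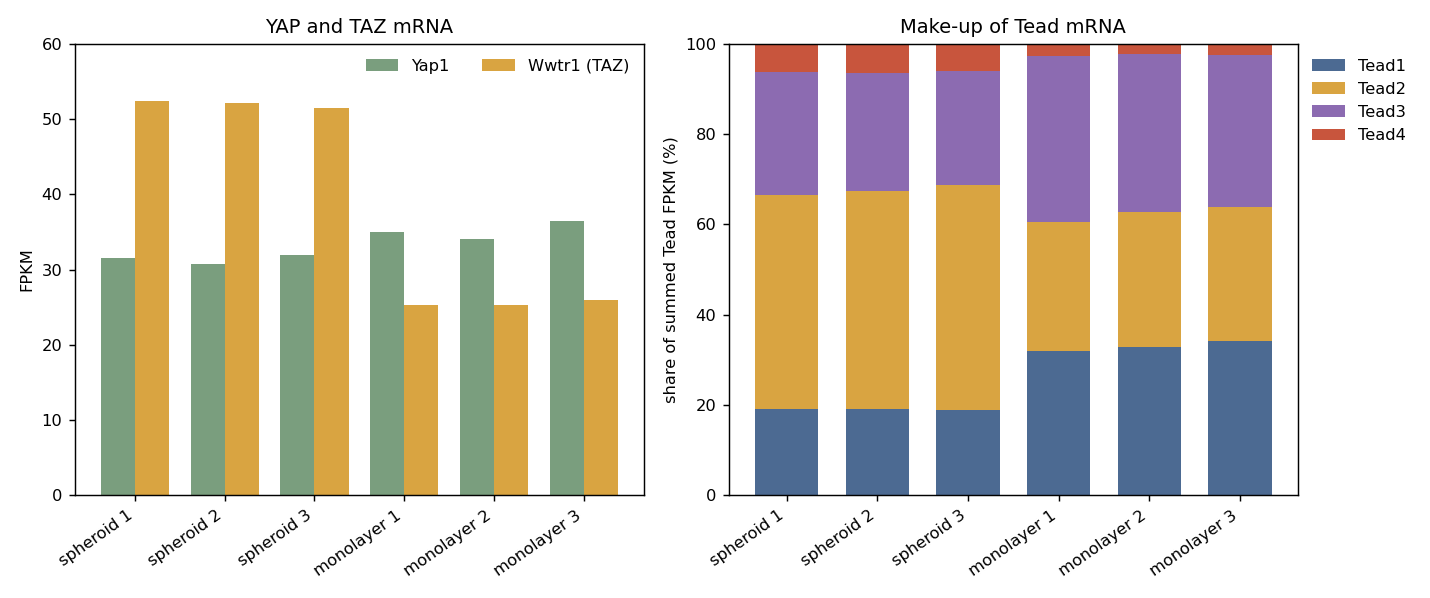
Left, FPKM of Yap1 and Wwtr1 in each library; right, share of each paralog in the summed Tead FPKM of the library, in percent. Wwtr1 exceeded Yap1 in the 3 spheroids and Yap1 exceeded Wwtr1 in the 3 monolayers, and Tead2 made 47.6% to 49.7% of the Tead sum in spheroids against 28.5% to 30.0% in monolayers.

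Both genes of the LATS kinases, which phosphorylate YAP and TAZ, fell. Lats2 (gene ID 50523, chromosome 14, 57689662 to 57746212) had 66.0, 66.4 and 65.4 CPM in spheroids, against 117, 121 and 123 CPM in monolayers. It was lower in every spheroid, and the log2 fold change was -0.87 ± 0.03 (adjusted p = 1.3e-20). Lats1 (gene ID 16798, chromosome 10, 7681200 to 7716461) had 57.0, 55.3 and 58.4 CPM in spheroids, against 59.6, 62.6 and 62.3 CPM in monolayers. The gap between the groups was narrow, and the log2 fold change was -0.11 ± 0.04 (adjusted p = 0.0132). That call was lost without spheroid replicate 2 (adjusted p = 0.0746), without monolayer replicate 2 (0.0568), in DESeq2 (0.066), with raw library sizes (0.083) and with limma on FPKM (0.179 to 0.189). In FPKM, the ratio of Lats1 to Lats2 was 0.603 ± 0.0231 in spheroids and 0.352 ± 0.00946 in monolayers. Lats2 shares 2955 of its 6971 exonic bases with Gm49361, a gene of GENCODE M21 on the same strand that was not analysed here, so reads of both could have been counted together.

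Amotl2 and Ankrd1, both YAP and TAZ targets, had the largest changes of the 10 genes and went opposite ways. Amotl2 (gene ID 56332, chromosome 9, 102717091 to 102733418) encodes a junction and actin-binding scaffold that restrains YAP. It had 71.7, 68.1 and 73.8 CPM in spheroids, against 458, 435 and 458 CPM in monolayers. Amotl2 was thus 6.32-fold lower in spheroids, and the log2 fold change was -2.66 ± 0.03 (adjusted p = 5.85e-34). Of the 10 genes it ranked first per length in monolayers, at 107 ± 3.29 FPKM, and lay within the spread of Tead3 in spheroids, at 17.3 ± 0.791 FPKM against 17.4 ± 0.826 FPKM for Tead3.

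Ankrd1 (gene ID 107765, chromosome 19, 36111965 to 36119844) encodes a muscle ankyrin repeat protein that acts in the nucleus and on titin in the sarcomere. It had 50.3, 48.7 and 49.6 CPM in spheroids, against 10.4, 10.2 and 10.4 CPM in monolayers. All spheroids lay far above all monolayers, a 4.80-fold difference with little spread within either format, and the log2 fold change was 2.26 ± 0.06 (adjusted p = 2.77e-26). The other members of the family rose as well. Ankrd23 had a log2 fold change of 3.88 ± 0.07, at 69.5, 74.0 and 64.6 CPM in spheroids against 5.21, 4.25 and 4.70 CPM in monolayers. Ankrd2 had 220 reads over the 3 spheroids and 9 over the 3 monolayers, and a log2 fold change of 4.53 ± 0.31. With so few monolayer reads, Ankrd2 was tested only through the spheroids and could not have fallen.

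Markers of skeletal muscle, whose cells express all 3 of these genes and Tead4, rose in the same libraries. Of 15 such markers 14 were tested and 14 rose, as did 37.1% of all tested genes. The median log2 fold change of the 14 was 4.17. The summed level of the list was 2456 to 2633 CPM in spheroids and 135 to 141 CPM in monolayers. No marker was at 0 reads in both formats. Ckm, with 213 reads over the spheroids and 12 over the monolayers, had enough to be tested only through the spheroids. It could thus not have fallen. Myod1, the myogenic master regulator gene, had 33.7, 32.5 and 29.6 CPM in spheroids against 2.09, 2.54 and 2.07 CPM in monolayers, while Des, the gene of the filament protein desmin, and Myh3, an embryonic myosin gene, each had a log2 fold change of 4.47. Both Ankrd1 and Tead4 changed by less than that median. Endothelial markers also rose, 10 of 10, summing to 363 to 383 CPM in spheroids and 58.8 to 62.7 CPM in monolayers. Tie1 and Kdr had log2 fold changes of 3.44 ± 0.09 and 3.38 ± 0.08. Cldn5, with 270 reads over the spheroids and 9 over the monolayers, was likewise tested only through its spheroid reads.

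Markers of further cell types were also higher in spheroids, where 37.1% of all tested genes passed as higher. Of 8 macrophage and leukocyte markers 7 rose, summing to 57.8 to 61.0 CPM in spheroids and 16.2 to 18.3 CPM in monolayers, with Cd68 and Laptm5 at log2 fold changes of 3.16 ± 0.11 and 2.10 ± 0.11. All 6 tested of 7 Schwann cell markers rose, from a list summing to 94.5 to 97.2 CPM in spheroids and 19.9 to 22.1 CPM in monolayers, with Erbb3 and Sox10 at 3.24 ± 0.09 and 2.65 ± 0.08. All 5 tested of 6 mural cell markers rose, with sums of 291 to 302 CPM in spheroids and 157 to 162 CPM in monolayers, with Kcnj8 and Abcc9 at 3.68 ± 0.17 and 2.95 ± 0.07. All 5 tested of 7 osteoclast markers rose, with sums of 738 to 748 CPM in spheroids and 179.8 to 184 CPM in monolayers, nearly all of it Ctsk, which other cells also express. Acp5, the tartrate-resistant acid phosphatase gene, had a log2 fold change of 2.45 ± 0.11, and Atp6v0d2, a proton pump subunit gene, had 1238 reads over the spheroids and 12 over the monolayers. Dcstamp had 61 reads over the spheroids and 0 over the monolayers, and Ocstamp 80 and 1. Both, like Atp6v0d2, had enough reads to be tested only through the spheroids, so they could not have fallen. The untested Oscar had 20 reads over the spheroids and 18 over the monolayers, and Calcr 1 and 1. Fcer1g, Tyrobp, Adgre1 and Kcnj8 of the lists above were also tested only through their spheroid reads. Periosteal mesenchyme markers, the defining group, went both ways, with 6 of 11 higher and 4 lower and a median log2 fold change of 0.16. Pdgfra and Postn had the largest changes of that list, at 1.55 ± 0.03 and 1.16 ± 0.03. Col1a1 and Col1a2 had the largest falls, at -1.14 ± 0.03 and -1.01 ± 0.03. The list summed to 44951 to 47329 CPM in spheroids and 63505 to 64895 CPM in monolayers. The part of any of these cell types in the Hippo gene results was not tested.

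The YAP and TAZ target signature used here is a published list of 22 human target genes, taken in mouse by symbol, and holds Lats2, Amotl2 and Ankrd1. Among its 19 other genes, all tested, 14 fell and 5 rose, with a median log2 fold change of -0.59 against 0.00 for all tested genes. Of all tested genes 37.1% fell and 37.1% rose. Falls of at least 2-fold were found for 7 and rises for 3 of the 19, against 6.67% and 12.7% of all tested genes. Ccn2, the connective tissue growth factor gene, had 124, 120.0 and 125 CPM in spheroids against 1071, 1037 and 1036 CPM in monolayers (log2 fold change -3.09 ± 0.03). Ccn1, the gene of the matricellular protein CYR61, had 118, 102 and 106 CPM in spheroids against 696, 684 and 698 CPM in monolayers (-2.67 ± 0.04). Amotl2 lay next to this pair at the lower end of the signature. Nuak2, a kinase gene, had a log2 fold change of -2.13 ± 0.11, with 2.97 ± 0.301 CPM in spheroids and 13.0 ± 0.937 CPM in monolayers.

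At the upper end, Ankrd1 stood beside Igfbp3 and Nt5e. Igfbp3, which encodes a carrier of insulin-like growth factors, had between 240.3 and 254 CPM in spheroids against 54.2, 56.0 and 52.4 CPM in monolayers (log2 fold change 2.19 ± 0.04). Nt5e, the gene of the ectonucleotidase CD73, had 27.9, 29.8 and 28.4 CPM in spheroids against 6.93, 6.66 and 6.04 CPM in monolayers (2.13 ± 0.07). Tgfb2, a growth factor gene, followed at 1.34 ± 0.05, Dock5 at 0.98 ± 0.05 and Fjx1 at 0.58 ± 0.09. The other members of the signature that fell ranged down from Arhgef17 at -0.18 ± 0.03 and Axl at -0.25 ± 0.03 to Crim1 and Ccdc80, both at -1.45 after rounding. The signature was chosen with earlier results of these data known, so its direction here is a description.

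**Figure D3:**
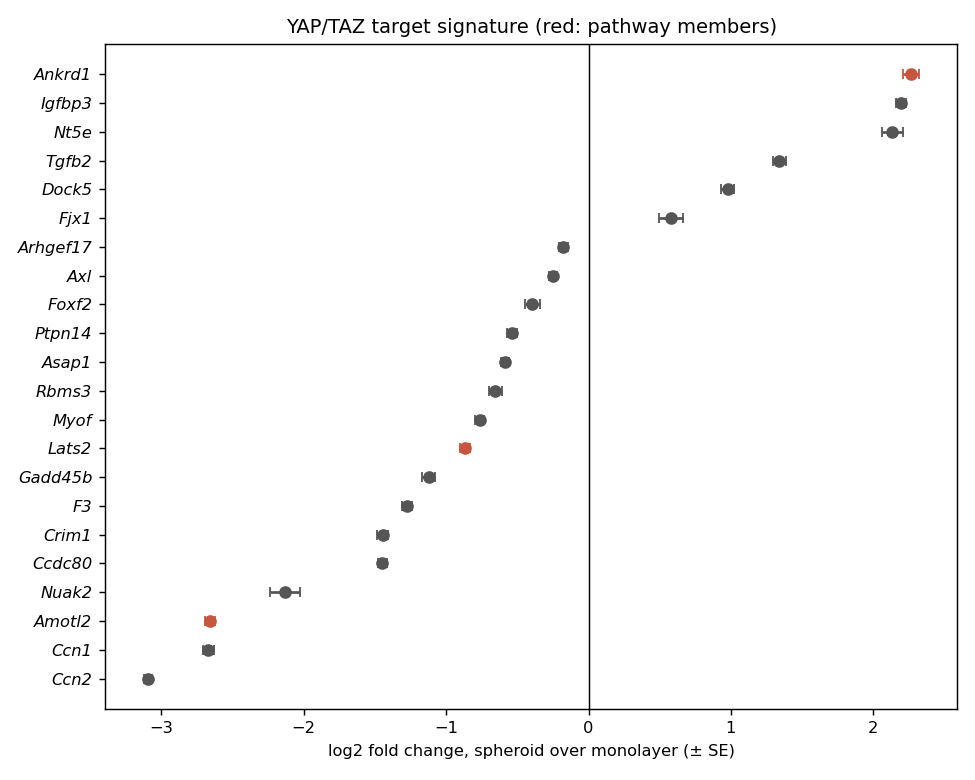
Log2 fold change, spheroid over monolayer, of the 22 genes of the YAP and TAZ target signature; points are estimates, bars are ± 1 SE, and red marks Lats2, Amotl2 and Ankrd1. The signature runs from Ccn2 at -3.09 to Ankrd1 at 2.26, with 16 genes below 0 and 6 above.

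Taken per length, the order of the 10 levels differed between formats. In spheroids it ran from Wwtr1 at 52.0 ± 0.447 FPKM through Tead2, Yap1, Ankrd1, Tead3, Amotl2, Lats2, Tead1 and Lats1 to Tead4 at 4.12 ± 0.182 FPKM. Of these neighbours, Tead2 and Yap1 overlapped across libraries, as did Tead3 and Amotl2. In monolayers it ran from Amotl2 through Yap1, Wwtr1, Tead3, Lats2, Tead1, Tead2, Lats1 and Ankrd1 to Tead4 at 1.69 ± 0.219 FPKM. Wwtr1, Tead3, Lats2 and Tead1 formed a run in which each overlapped the next. Ankrd1 lay above Tead1, Tead3, Lats1, Lats2 and Amotl2 in spheroids, at 29.2 ± 0.668 FPKM, and below all of them in monolayers, at 5.94 ± 0.0802 FPKM.

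Promoter sequences show where the coactivator genes and these 2 targets carry the hexamer GGAATG, the core of the MCAT element that TEAD factors bind. RefSeq windows (GRCm38.p6) were found for 8 of the 10 genes, in 12 windows because some genes have several annotated starts. In the 250 bases before a start, GGAATG or its reverse complement CATTCC was found in 7 of the 12 windows and 5 of the 8 genes, and in 12.6% of all 32851 windows. Some of the 7 overlap and share a hexamer. The sequences are written 5′ to 3′ on the strand of the gene. Capitals mark this hexamer on either strand and the E-box CANNTG, a general motif of the large factor family to which MYOD belongs.
Yap1, chr9:8004597-8004846, minus strand: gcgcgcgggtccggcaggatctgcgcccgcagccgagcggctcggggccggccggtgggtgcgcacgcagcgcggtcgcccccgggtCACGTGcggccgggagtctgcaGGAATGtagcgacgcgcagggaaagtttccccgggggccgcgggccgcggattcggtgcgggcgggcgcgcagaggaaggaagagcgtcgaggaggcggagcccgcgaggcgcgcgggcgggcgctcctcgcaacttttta
Wwtr1, chr3:57575911-57576160, minus strand: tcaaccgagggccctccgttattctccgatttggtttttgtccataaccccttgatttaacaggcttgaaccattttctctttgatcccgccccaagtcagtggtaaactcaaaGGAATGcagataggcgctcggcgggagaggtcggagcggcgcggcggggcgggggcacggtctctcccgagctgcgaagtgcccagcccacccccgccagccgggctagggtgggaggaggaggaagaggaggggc
Amotl2, chr9:102717554-102717803, plus strand: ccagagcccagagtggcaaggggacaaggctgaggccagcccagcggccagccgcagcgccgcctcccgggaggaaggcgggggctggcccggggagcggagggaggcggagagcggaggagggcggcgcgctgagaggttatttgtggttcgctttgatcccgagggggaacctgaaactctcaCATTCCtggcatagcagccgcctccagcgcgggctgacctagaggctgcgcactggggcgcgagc
Ankrd1, chr19:36119845-36120094, minus strand: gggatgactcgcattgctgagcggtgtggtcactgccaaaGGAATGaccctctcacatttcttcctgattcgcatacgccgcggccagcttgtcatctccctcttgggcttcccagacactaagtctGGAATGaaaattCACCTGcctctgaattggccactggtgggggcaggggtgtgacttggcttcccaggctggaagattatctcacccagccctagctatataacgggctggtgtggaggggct

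Ankrd1 carries the hexamer at 210 and 123 bases before its start, counted to the first base of the match, and an E-box at 111 bases. Amotl2 carries the hexamer on the other strand at 65 bases, Wwtr1 at 136 bases and Yap1 at 141 bases. For Wwtr1 the first of 2 annotated starts is shown, and the Yap1 and Amotl2 windows overlap the annotated gene, whose outermost start lies farther upstream. Amotl2 and Ankrd1, targets that went opposite ways, thus both hold the hexamer, as do both coactivator genes. Tead3 holds it in some but not all of its windows. Lats2, also a target, holds it in neither of its windows, and Tead2 and Lats1 do not hold it. E-boxes were found in 4 of the 12 windows, the Yap1 one at 163 bases among them, and in 66.2% of all windows. The AP-1 motif TGANTCA and the CArG box of SRF were found in none of the 12 windows, against 6.75% and 1.47% of all windows. These are matches of letters and do not show binding.

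Most other pathway genes changed little. Of 51 other pathway genes, in 4 lists, 49 were tested, 17 rose, 23 fell and 9 did not pass. Of all tested genes 37.1% rose and 37.1% fell, 74.2% in either direction, so these counts do not set the lists apart. The median log2 fold change of the pathway genes was -0.08. Their median absolute log2 fold change was 0.25, below that of all tested genes. Rises of at least 2-fold were found for 3 and falls for 3 of the 49, against 12.7% and 6.67% of all tested genes. In the list of the kinase cascade and its scaffolds, 8 of 21 genes rose and 10 fell. Stk3 and Stk4 encode MST2 and MST1, Sav1 their scaffold and Mob1a and Mob1b the activators of LATS. Stk3 had 34.6 ± 0.983 CPM in spheroids and 33.8 ± 1.18 CPM in monolayers (adjusted p = 0.555), and Sav1 had 114 ± 3.38 CPM in spheroids and 111 ± 2.17 CPM in monolayers (adjusted p = 0.312). Stk4 stood at a log2 fold change of -0.19 ± 0.05 and Mob1a at -0.45 ± 0.03.

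Larger changes lay at the edges of the cascade. Map4k4, a kinase gene that can act in place of MST1 and MST2 on LATS, had 429, 452 and 444 CPM in spheroids against 222, 214 and 224 CPM in monolayers (log2 fold change 1.01 ± 0.03). Dchs1 and Fat4 encode giant cadherins that bind each other between cells, and they went opposite ways. Dchs1 had 33.1, 35.6 and 31.1 CPM in spheroids against 7.58, 6.61 and 9.73 CPM in monolayers (2.06 ± 0.10). Fat4 had 27.4, 24.3 and 21.6 CPM in spheroids against 60.5, 63.3 and 59.6 CPM in monolayers (-1.32 ± 0.06). Wwc2 and Frmd6, upstream scaffold genes, fell, at -0.84 ± 0.04 and -0.56 ± 0.03.

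The angiomotin family shifted in make-up as well. Amotl1 had 231, 241 and 245 CPM in spheroids against 118, 116 and 128 CPM in monolayers (log2 fold change 0.99 ± 0.03), and Amot stood at -0.31 ± 0.04. Summed over the 3 family members, the level was 51.0 ± 1.09 FPKM in spheroids and 128 ± 3.89 FPKM in monolayers. Amotl2 made 34.0 ± 1.09% of that sum in spheroids and 83.6 ± 0.507% in monolayers. In spheroids Amotl1 was the more abundant, at 27.2 ± 0.762 FPKM, with no overlap with Amotl2. The family sum was chosen after the values were seen.

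Inhibitors of the cascade, among them subunits of the STRIPAK phosphatase complex, had 3 of 14 tested genes higher, 5 lower and 6 not passing. Of all tested genes 37.1% were higher and 37.1% lower. Ajuba, which encodes a LIM protein that holds LATS inactive at junctions, had 30.0, 31.5 and 29.7 CPM in spheroids against 63.4, 62.3 and 62.0 CPM in monolayers (log2 fold change -1.04 ± 0.04). Limd1, which encodes a related LIM protein, rose by 0.53 ± 0.04. The others that rose were Strn4, a striatin gene, at 0.18 ± 0.04, and the kinase gene Stk24 at 0.13 ± 0.03. After Ajuba, Sike1 and the striatin gene Strn3 had the largest falls, at -0.31 ± 0.05 and -0.27 ± 0.03. Strn, also lower at -0.13, lost its call in DESeq2 (adjusted p = 0.0683) and with raw library sizes (0.0621), among other alternatives. Of 11 genes for the retention and turnover of YAP and TAZ, 7 fell and 4 rose, with a median of -0.24. Those that fell were Ptpn14 and the 14-3-3 genes Ywhab, Ywhae, Ywhag, Ywhah, Ywhaq and Ywhaz, which bind phosphorylated YAP, from Ywhah at -0.57 ± 0.03 to Ywhaz at -0.06 ± 0.03. The Ywhaz call (adjusted p = 0.0486 in edgeR) is marginal, since its CPM ranges overlapped between formats and the call was lost, leaving 6 lower, in DESeq2 (0.077), with DESeq2 size factors (0.0547), with raw library sizes (0.354), with limma on FPKM (0.42 to 0.463) and without spheroid replicate 1 (0.144) or 2 (0.207) or monolayer replicate 2 (0.0617) or 3 (0.11). Those that rose were the casein kinase genes Csnk1d and Csnk1e and the ubiquitin ligase genes Btrc and Fbxw11, by at most 0.24.

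Other TEAD cofactors showed the largest fall among the pathway genes outside the 10. Vgll3, a vestigial-like gene whose product binds TEADs at the surface used by YAP and TAZ, had 35.8, 35.1 and 39.8 CPM in spheroids against 239.6, 234 and 238 CPM in monolayers. It was 6.43-fold lower in spheroids (log2 fold change -2.68 ± 0.04, adjusted p = 7.19e-33). Vgll4, which competes with YAP for TEADs, had 70.9, 72.1 and 71.9 CPM in spheroids against 41.0, 42.3 and 43.1 CPM in monolayers (0.77 ± 0.04). Per length, Vgll4 exceeded Vgll3 in spheroids, at 27.3 ± 0.585 FPKM against 5.34 ± 0.389 FPKM. In monolayers Vgll3 was the higher, at 33.6 ± 0.393 FPKM against 16.1 ± 0.776 FPKM for Vgll4. Vgll2, a muscle cofactor gene, rose by 1.28 ± 0.21 with 189 reads over the spheroids and 76 over the monolayers, and Vgll1 had 0 reads in all 6 libraries.

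**Figure D4:**
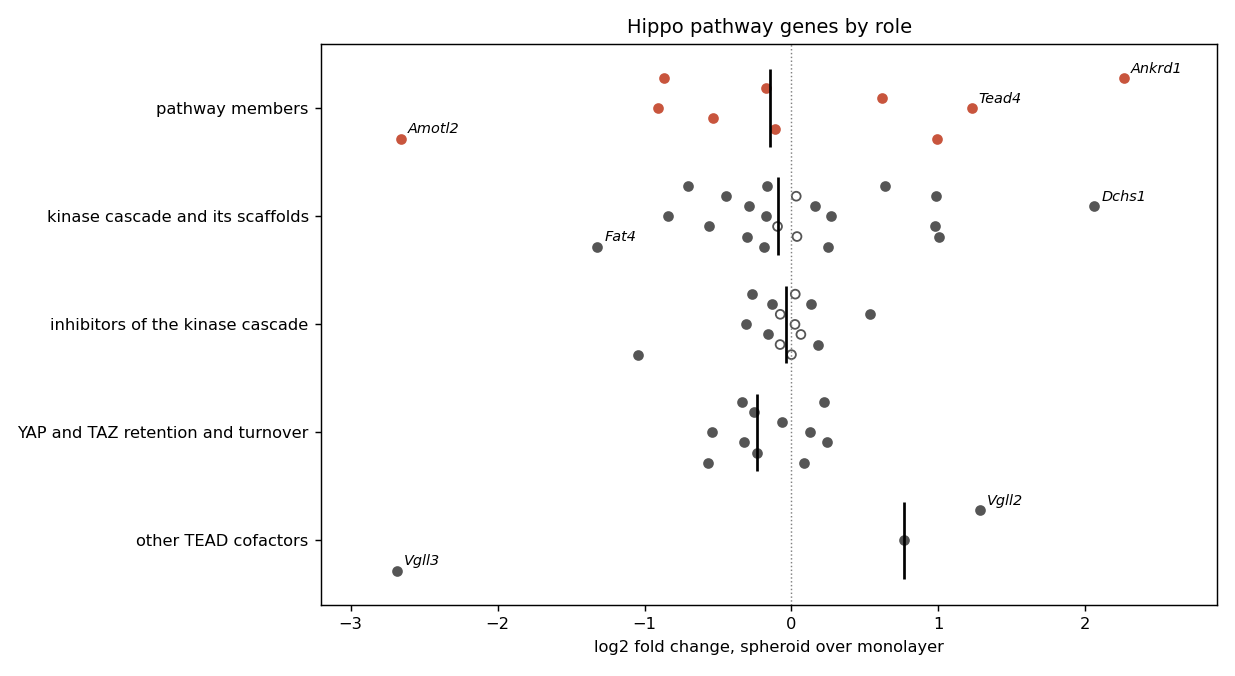
Log2 fold change, spheroid over monolayer, of each tested gene by role; filled points passed an adjusted p of 0.05, open points did not, and vertical bars are list medians. The 10 Hippo genes (red) reach from Amotl2 at -2.66 to Ankrd1 at 2.26, and Vgll3, Dchs1 and Fat4 lie outside the main body of the other lists.

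Likeness of profile was measured as the Euclidean distance of mean-centred log2 CPM over the 6 libraries. Genes under 5 CPM in both groups and genes with clone-like or predicted names were left out. Of the rest, Gadd45a (distance 0.0834), Ednra (0.0886) and Col18a1 (0.111) were nearest to Ankrd1. Flt4 (0.127), Fgf11 (0.162) and Nr4a3 (0.177) were nearest to Tead4. With only 2 formats, such a distance mainly compares the size of the change. Yap1 lies on chromosome 9 beside a cluster of matrix metalloproteinase genes. The nearest tested genes were Cfap300 at 17.0 kb, with a log2 fold change of 0.45 ± 0.10, and Birc3 at 58.8 kb on the other side, at 0.62 ± 0.07. Next came Cep126 at 71.8 kb (-0.11 ± 0.17, adjusted p = 0.565) and Birc2 at 94.9 kb (0.11 ± 0.07, adjusted p = 0.114), which did not pass. Tmem123 at 137.7 kb fell, at -0.92 ± 0.03, a larger fall than the -0.17 of Yap1. The other 5 tested genes within 600 kb were Mmp27, Mmp8, Mmp10, Mmp3 and Mmp12. All 5 rose, as did 37.1% of all tested genes. Their log2 fold changes lay between 3.28 ± 0.27 for Mmp8 and 7.51 ± 0.06 for Mmp3 at 476 kb. Their reads are not given here, so it is not shown whether each had enough in monolayers to have fallen.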

How the data were processed

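RNA of 3 spheroid and 3 monolayer libraries was profiled on the DNBSEQ platform. The submitters' processing notes name HISAT as aligner and GRCm38.p6 as build; for counting tool, annotation and strand use, the value is not given in the sources used here. Expected counts (estimates of reads per gene, some with decimals) and FPKM values were deposited by the authors, per the file headers. Counts were rounded to whole numbers, filtered with filterByExpr at a minimum count of 10 and tested with edgeR 4.0.16 (R 4.3.3) with TMM scaling and a robust quasi-likelihood fit; p-values were adjusted by Benjamini-Hochberg over 13708 genes. Standard errors come from the F statistic. CPM uses TMM-adjusted library sizes. Replicate pairs differed by more than counting noise (mean chi-square ratio 1.90 to 2.91), so each library was counted once. For Yap1, Tead2, Amotl2 and Ankrd1 all deposited counts were whole, and for the other 6 genes some or all had decimals, as when reads are divided between genes or transcripts.

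Members and lists were chosen with earlier results of these data known. All 10 members are named, with the 3 largest rises and 3 largest falls per pathway list at 5 CPM or more, 2 markers per cell type, the target signature, the 3 genes nearest in profile to Ankrd1 and to Tead4, and neighbours of Yap1 within 600 kb. Other genes named were chosen after their values were seen. A further pathway list is not reported here. Gene coordinates and promoters are from RefSeq GRCm38.p6 and exon overlaps from GENCODE M21. The test was checked on simulated counts in which far fewer genes changed than were called here. That check does not cover so broad a difference. Alternatives were other scalings, no filter, DESeq2 1.42.0, limma-voom, limma 3.58.1 on log2(FPKM + 1) and log2(FPKM + 0.1), a block on replicate number, and leaving out each library.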

Additional observations from a re-analysis of the deposited data

How the results depend on the processing

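Apart from Lats1, each of the 10 Hippo genes kept its direction and its call under every alternative run: other scalings, no filter, DESeq2, limma-voom, limma on FPKM, the replicate block and leaving out each library. Log2 fold changes ranged from 0.98 to 1.03 for Wwtr1, from -0.19 to -0.14 for Yap1, from 0.93 to 1.33 for Tead4, from -2.69 to -2.56 for Amotl2 and from 2.12 to 2.30 for Ankrd1. Lats1 kept its direction but lost its call with raw library sizes (-0.078, adjusted p = 0.083), in DESeq2 (-0.11, 0.066) and with limma on log2(FPKM + 1) (-0.070, 0.179), on log2(FPKM + 0.1) (-0.077, 0.179) and on log2(FPKM + 1) with no filter (-0.070, 0.189). Without single libraries its log2 fold change lay between -0.14 and -0.092; the cause was not tested. Requiring at least a 2-fold change left 1746 genes higher and 915 lower, and 2 and 1 of the Hippo genes. Of the osteoclast markers 3 were called higher with limma on FPKM at either pseudocount, since that filter tests fewer of them. The spheroid sum of Yap1 and Wwtr1 was 82.5 from TMM-scaled CPM per implied length, against 83.4 FPKM. With the replicate number as a block, 5120 genes were called higher and 5118 lower, and no call among the 10 changed. Deviations of same-numbered libraries correlated at -0.049, 0.071 and 0.060, so the numbers were not taken to pair the libraries. Depth limits Tead4 most, with 796 reads over the spheroids and 334 over the monolayers.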
